A study of Mus musculus with 24 samples.

Results

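Lactate transporters and lactate dehydrogenases were examined in tissue-resident macrophages of 4 mouse tissues. The genes were the SLC16 carriers Slc16a1, Slc16a3, Slc16a6, Slc16a7, Slc16a10 and Slc16a13, the carrier chaperone Bsg, and the dehydrogenase subunits Ldha and Ldhb. They were found by gene symbol, and all 9 were present among the 55487 genes of the deposited table. Slc16a1 was picked because it was lower in alveolar macrophages of the mutant, so its values in those libraries are a description and carry no test.

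Bulk RNA sequencing covered 24 libraries in 8 groups of 3. Macrophages came from lung (alveolar macrophages), liver (Kupffer cells), brain (microglia) and spleen, and in each tissue 3 libraries came from Z165KO mice (KO here) and 3 from wild-type mice (WT). The labels name no treatment, age, sex or strain, and they describe neither the Z165KO allele nor any Cre driver or sorting gate. Whether replicates are different animals is not stated in them, so every p-value rests on a spread between libraries that may be technical. Levels are given as CPM, counts scaled to the library total, which compare a gene between libraries. TPM, which also divides by transcript length, is used to compare different genes.

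Lactate dehydrogenase is a tetramer that interconverts pyruvate and lactate. The Ldha subunit predominates in glycolytic tissues such as skeletal muscle, and the Ldhb subunit predominates in oxidative tissues such as heart. Proton-linked SLC16 carriers move lactate and pyruvate across the plasma membrane along their gradients, and several of them reach the cell surface only when bound to a chaperone such as basigin. In macrophages, glycolysis and lactate release are known to rise on inflammatory activation.

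Total counts per library ranged from 50449347 to 65981787. Summed markers of each labelled cell type were high in its own libraries, for example 26430 to 32180 CPM in KO and 21540 to 26800 CPM in WT alveolar macrophages for 7 alveolar markers led by Chil3. Zeb2, a transcription factor that the series title names with cMaf, had 139, 126 and 142 CPM in KO alveolar macrophages, against 297, 282 and 190 CPM in WT alveolar macrophages. In the other 3 cell types the Zeb2 values of KO and WT libraries overlapped. Summed B cell markers (9 genes) were lower in KO than in WT libraries of 3 tissues: they were 6.41 to 9.16 CPM in KO and 78.5 to 166 CPM in WT alveolar libraries, 49.6 to 119.7 CPM in KO and 651 to 1077 CPM in WT Kupffer libraries, and 62.9 to 114 CPM in KO and 1131 to 1653 CPM in WT splenic libraries. In microglia the same sum was 493 to 657 CPM in KO and 557 to 689 CPM in WT. Pax5 and Fcer2a were at 0 in all KO alveolar libraries, Pax5 and Ebf1 in all KO Kupffer libraries and Pax5 in all KO splenic libraries. In bulk libraries, fewer cells of a type and less RNA per cell cannot be told apart.

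Promoter sequence is shown for 4 genes, the classical lactate carriers Slc16a1 and Slc16a3 and the dehydrogenase subunits Ldha and Ldhb, so that they can be compared as DNA as well as in level. RefSeq promoter windows on GRCm38.p6 were found for 5 of the 9 genes (Slc16a1, Slc16a3, Slc16a10, Ldha and Ldhb). Each line below gives the 250 bases before an annotated start, 5′ to 3′ on the gene's own strand. Capitals mark ACGTG or its reverse complement CACGT, a form of the core of the hypoxia response element, and both marks merge where they overlap as CACGTG. The form GCGTG was not searched for, and the Slc16a1 and Ldhb windows hold it unmarked. The windows are chr3:104638414-104638663 on the plus strand for Slc16a1, chr11:120948817-120949066 on the plus strand for Slc16a3, chr7:46845554-46845803 on the plus strand for the first of 2 Ldha starts, and chr6:142507958-142508207 on the minus strand for Ldhb.
Slc16a1: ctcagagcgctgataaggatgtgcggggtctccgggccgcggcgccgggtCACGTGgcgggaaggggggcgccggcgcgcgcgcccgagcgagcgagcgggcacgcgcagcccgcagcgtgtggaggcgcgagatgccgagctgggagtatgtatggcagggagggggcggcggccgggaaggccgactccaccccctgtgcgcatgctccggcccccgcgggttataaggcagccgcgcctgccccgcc
Slc16a3: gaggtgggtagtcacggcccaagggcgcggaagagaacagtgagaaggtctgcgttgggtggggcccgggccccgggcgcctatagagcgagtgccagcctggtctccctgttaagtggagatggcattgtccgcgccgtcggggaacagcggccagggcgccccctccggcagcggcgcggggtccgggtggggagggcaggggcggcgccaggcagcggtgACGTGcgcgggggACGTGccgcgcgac
Ldha: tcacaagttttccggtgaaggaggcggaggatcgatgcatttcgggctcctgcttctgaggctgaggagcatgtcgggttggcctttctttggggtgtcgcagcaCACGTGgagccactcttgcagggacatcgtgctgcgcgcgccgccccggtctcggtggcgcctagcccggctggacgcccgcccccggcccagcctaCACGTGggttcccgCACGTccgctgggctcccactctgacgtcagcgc
Ldhb: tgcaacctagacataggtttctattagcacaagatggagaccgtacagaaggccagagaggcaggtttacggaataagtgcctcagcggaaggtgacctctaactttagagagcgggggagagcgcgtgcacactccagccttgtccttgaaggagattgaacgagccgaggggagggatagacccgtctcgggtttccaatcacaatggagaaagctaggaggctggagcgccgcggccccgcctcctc
ACGTG was found on either strand in 1 stretch of the Slc16a1 window, 2 stretches of the Slc16a3 window and 3 stretches of the Ldha window, and in none of the Ldhb window. Of 32851 promoter windows of the same length, 16.6% held it on either strand. CACCTG or CAGGTG, the E-box form that ZEB proteins are known to bind, was absent from these 4 windows and was present in 17.2% of all windows; it occurred once in the window of the second Ldha start and once in that of Slc16a10. GC content was 76.4% for Slc16a1, 73.6% for Slc16a3, 67.2% for Ldha and 56.4% for Ldhb, against a median of 52.4% over all windows.

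Slc16a1 (ENSMUSG00000032902, chromosome 3 from 104638668 to 104658462, plus strand, mm10) encodes a high-affinity carrier of lactate and pyruvate. It was low in KO alveolar macrophages, which is the difference it was chosen for. It had 5.21, 5.17 and 6.61 CPM there, against 33.7, 31.9 and 22.3 CPM in WT alveolar macrophages. The means were 5.66 ± 0.818 and 29.3 ± 6.16 CPM (SD, n = 3 each), so KO stood at 19.3% of WT. No KO library came near the lowest WT library, which was replicate 3. The same WT library was also the lowest of its group for Zeb2 and for the summed B cell markers.

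In the other tissues, whose libraries did not choose it, Slc16a1 did not follow the alveolar direction throughout. In splenic macrophages it had 73.0, 120.1 and 132 CPM in KO, against 58.0, 49.7 and 71.5 CPM in WT. KO replicate 1 lay just above the highest WT library, and the groups did not overlap. The log2 fold change was 0.90 ± 0.24 (SE), which did not pass at an adjusted p of 0.210 by the quasi-likelihood test of edgeR, adjusted over all genes tested. Over the alternatives the adjusted p ran up to 0.452, and the Wald test of DESeq2 gave 0.0111, the only alternative that called it.

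In microglia, Slc16a1 had 25.4, 36.7 and 30.2 CPM in KO, against 18.0, 19.1 and 24.4 CPM in WT. Again every KO library was above every WT library, although the nearest pair differed by little. The log2 fold change was 0.59 ± 0.20, with an adjusted p of 0.987 by edgeR. In Kupffer cells it had 10.5, 12.9 and 8.13 CPM in KO, against 18.9, 16.5 and 10.4 CPM in WT, and these groups overlapped. The Kupffer log2 fold change was −0.53 ± 0.27 (adjusted p = 0.781). A test of whether the genotype effect on Slc16a1 differed between Kupffer cells, microglia and splenic macrophages did not pass by edgeR (adjusted p = 0.322, range over alternatives 0.125 to 0.591), where 0.129% of all genes tested passed.

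**Figure D1:**
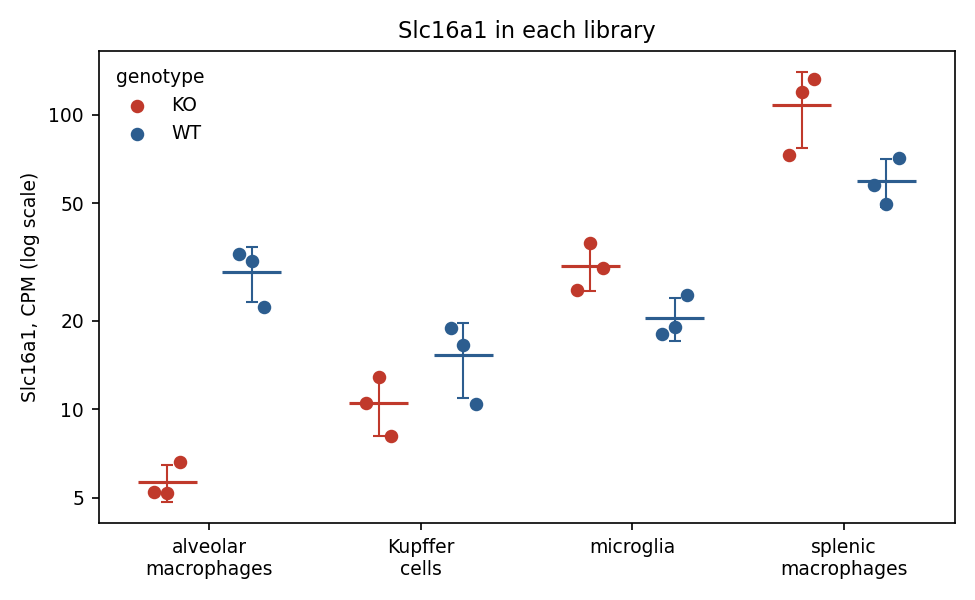
Slc16a1 in CPM on a log axis for each of the 24 libraries, with KO left of WT in each cell type, bars at the group means and whiskers of 1 SD. The 3 KO alveolar libraries sit at 5.17 to 6.61 CPM, below all other libraries, and the 3 KO splenic libraries sit at 73.0 to 132 CPM, above all other libraries.

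Across cell types, splenic macrophages had the most Slc16a1 in both genotypes. The group means fell in the order splenic, microglia, Kupffer and alveolar in KO, and splenic, alveolar, microglia and Kupffer in WT. The highest group was 19.2-fold above the lowest in KO and 3.91-fold above the lowest in WT. Among the 3 pairs without alveolar macrophages, splenic macrophages exceeded microglia by a log2 difference of 1.89 in KO (adjusted p = 0.00011) and 1.58 in WT (adjusted p = 0.00074). Kupffer cells were below microglia by edgeR in KO (log2 −1.69, adjusted p = 0.00028), while in WT this pair did not pass (log2 −0.60, adjusted p = 0.0997). Pairs with alveolar macrophages were not tested for this gene. Summed erythroid markers (9 genes) were 16260, 16020 and 26630 CPM in KO and 7247, 5531 and 21820 CPM in WT splenic libraries. They were at most 195 CPM in any library of another tissue. The part of erythroid cells in the splenic levels of Slc16a1 and the other members was not tested.

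Slc16a3 (chromosome 11 from 120948480 to 120960868, plus strand), the carrier known for lactate export from glycolytic cells, was highest in alveolar macrophages. It had 116, 132 and 110.2 CPM in KO alveolar macrophages, against 92.3, 69.0 and 105 CPM in WT alveolar macrophages. All KO values lay above all WT values, by a margin that was small next to the spread. The log2 fold change of 0.46 ± 0.16 did not pass (adjusted p = 0.292 by edgeR, range over alternatives 0.104 to 0.644).

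The remaining tissues held less Slc16a3. Microglia had 44.5, 46.4 and 45.1 CPM in KO and 49.7, 59.3 and 47.1 CPM in WT, with KO lower and no overlap (log2 −0.19 ± 0.14, adjusted p = 0.987). Kupffer cells had 14.8, 15.1 and 16.9 CPM in KO and 21.5, 19.5 and 14.9 CPM in WT, which overlapped. Splenic macrophages had 9.34, 16.9 and 14.7 CPM in KO and 17.4, 7.27 and 3.08 CPM in WT, the widest spread of any group for this gene relative to its mean. Their log2 fold change of 0.62 ± 0.57 (adjusted p = 0.737) became 1.42 without WT replicate 1 and 0.22 without WT replicate 3, and it was uncalled both times.

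Between cell types of WT mice, alveolar macrophages exceeded Kupffer cells in Slc16a3 by a log2 difference of 2.37 (adjusted p = 0.0027) and splenic macrophages by 3.20 (adjusted p = 0.00046). Alveolar macrophages and microglia were not separated in WT (log2 0.72, adjusted p = 0.217), but they were in KO (log2 1.39, adjusted p = 0.00023 by edgeR). Kupffer and splenic macrophages did not differ beyond their spread in either genotype (adjusted p = 0.977 in KO and 0.253 in WT). In WT this pair was called in 1 of 15 alternatives, without splenic WT replicate 1 (adjusted p = 0.0115 by edgeR). Microglia exceeded Kupffer cells in WT (adjusted p = 0.0155), a call that was lost without Kupffer WT replicate 3 (adjusted p = 0.0627).

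Slc16a6 (chromosome 11 from 109450855 to 109473598, minus strand), described in zebrafish as a ketone body exporter of the liver, was high in microglia and the spleen. It had 182, 164 and 205 CPM in KO microglia and 179, 199 and 190.5 CPM in WT microglia. Splenic macrophages had 164, 113 and 138 CPM in KO and 141, 160.3 and 108 CPM in WT. In both tissues the genotypes overlapped fully. Alveolar macrophages had 21.8, 14.7 and 23.1 CPM in KO and 31.7, 26.1 and 19.4 CPM in WT, also with overlap. Kupffer cells had 21.9, 14.1 and 18.6 CPM in KO and 23.8, 22.9 and 30.8 CPM in WT, where KO was lower without overlap (log2 −0.48 ± 0.24, adjusted p = 0.775). WT microglia exceeded WT Kupffer cells by a log2 difference of 3.05 (Kupffer over microglia −3.05, adjusted p = 1.9e-06), and microglia and splenic macrophages did not differ beyond their spread (adjusted p = 0.274 in KO and 0.113 in WT). Of its exonic bases, 1052 (21.5%) are shared with Amz2 on the opposite strand, and no source used here states whether counting used strand, so reads there cannot be told apart. Amz2 itself averaged at most 24.3 CPM in any group, well below Slc16a6 in microglia and the spleen and close to it in alveolar and Kupffer libraries.

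Slc16a10 (chromosome 10 from 40033532 to 40142258, minus strand) transports aromatic amino acids and thyroid hormone rather than lactate. Splenic macrophages had 87.1, 75.7 and 88.6 CPM in KO and 63.4, 69.7 and 95.5 CPM in WT, with overlap. Alveolar macrophages had 50.8, 46.0 and 41.7 CPM in KO and 61.6, 62.4 and 52.9 CPM in WT, with KO lower and no overlap (log2 −0.33 ± 0.15, adjusted p = 0.441). Microglia were lowest, at 6.12, 7.78 and 8.17 CPM in KO and 6.43, 7.47 and 7.46 CPM in WT. The splenic mean was 11.4-fold above the microglial mean in KO and 10.7-fold in WT. Kupffer cells lay between, at 22.6, 14.7 and 27.3 CPM in KO and 26.4, 19.7 and 14.6 CPM in WT. The alveolar and splenic levels differed in KO (log2 −0.94, adjusted p = 0.0093 by edgeR) and not in WT (log2 −0.46, adjusted p = 0.162); whether this contrast differs between the genotypes was not tested.

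Slc16a7 (chromosome 10 from 125219270 to 125389465, minus strand), a high-affinity pyruvate and lactate carrier, was the most even of the transporters. Group means ran from 19.2 CPM in KO alveolar to 42.4 CPM in KO microglia, and from 26.9 CPM in WT alveolar to 40.4 CPM in WT microglia. In alveolar macrophages it had 23.9, 13.3 and 20.2 CPM in KO, against 25.5, 24.9 and 30.2 CPM in WT. KO was lower there with no overlap, and the log2 fold change of −0.46 ± 0.24 did not pass (adjusted p = 0.512). Alveolar macrophages were below microglia by edgeR in KO (log2 −1.15, adjusted p = 0.0019) and in WT (log2 −0.64, adjusted p = 0.0157), the WT call being held in 12 of 15 alternatives and lost without alveolar WT replicate 1 or 2 or without microglia WT replicate 2.

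Slc16a13 (chromosome 11 from 70216789 to 70221064, minus strand), reported as a lactate transporter of hepatocytes in mice, was lowest in alveolar macrophages. It had 1.48, 0 and 1.31 CPM in KO alveolar macrophages and 2.49, 1.19 and 0.499 CPM in WT alveolar macrophages. The 0 in KO replicate 2 allows up to 3 counts (0.0495 CPM), by counting error only. Microglia had the most, with 22.4, 15.4 and 22.1 CPM in KO and 21.3, 23.6 and 21.3 CPM in WT. Kupffer cells had 7.18, 4.68 and 10.8 CPM in KO and 13.1, 10.1 and 10.8 CPM in WT. Splenic macrophages had 7.83, 6.26 and 10.9 CPM in KO and 5.12, 8.35 and 11.3 CPM in WT. The genotypes overlapped in every cell type. Alveolar macrophages were below microglia by edgeR in KO (log2 −4.43, adjusted p = 0.0052) and in WT (log2 −4.03, adjusted p = 0.00011), while Kupffer and splenic macrophages were not separated (adjusted p = 0.867 in KO and 0.811 in WT).

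Set side by side per transcript length, the 6 transporters made a different mix in each tissue. Shares were taken within a library, so they do not depend on how the TPM of that library was scaled. In alveolar macrophages Slc16a3 made up 62.3% ± 5.20 of the summed transporter TPM in KO and 42.3% ± 7.96 in WT (SD, n = 3 each), and Slc16a1 made up 3.56% ± 0.627 in KO and 16.8% ± 3.44 in WT. As Slc16a1 was chosen for its level there, both alveolar shares are a description. In microglia Slc16a6 led with 57.5% ± 2.47 in KO and 58.8% ± 0.872 in WT. In splenic macrophages Slc16a6 took 39.2% ± 8.10 in KO and 46.6% ± 8.67 in WT, followed by Slc16a1 with 33.5% ± 8.43 in KO and 22.5% ± 4.33 in WT. Kupffer cells had no leading carrier: the largest mean share was that of Slc16a6, with 21.2% ± 2.56 in KO and 24.4% ± 6.39 in WT.

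The summed transporter TPM was 109 ± 3.09 in KO and 124 ± 14.7 in WT alveolar macrophages, 55.3 ± 6.76 in KO and 69.0 ± 9.28 in WT Kupffer cells, 215 ± 13.3 in KO and 207 ± 7.96 in WT microglia, and 229 ± 17.2 in KO and 191 ± 9.12 in WT splenic macrophages. Between the 2 classical lactate carriers alone, Slc16a3 made up 9.52% ± 1.01 in KO and 11.4% ± 8.26 in WT splenic macrophages. The same share was 55.4% ± 4.03 in KO and 67.8% ± 5.49 in WT microglia, and 55.5% ± 7.12 in KO and 50.9% ± 3.13 in WT Kupffer cells. These shares follow from the levels tested above, and neither they nor the sums were tested. Once repeated rows were dropped, the TPM of every library added up to 1000000, so the sums are on 1 scale.

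**Figure D2:**
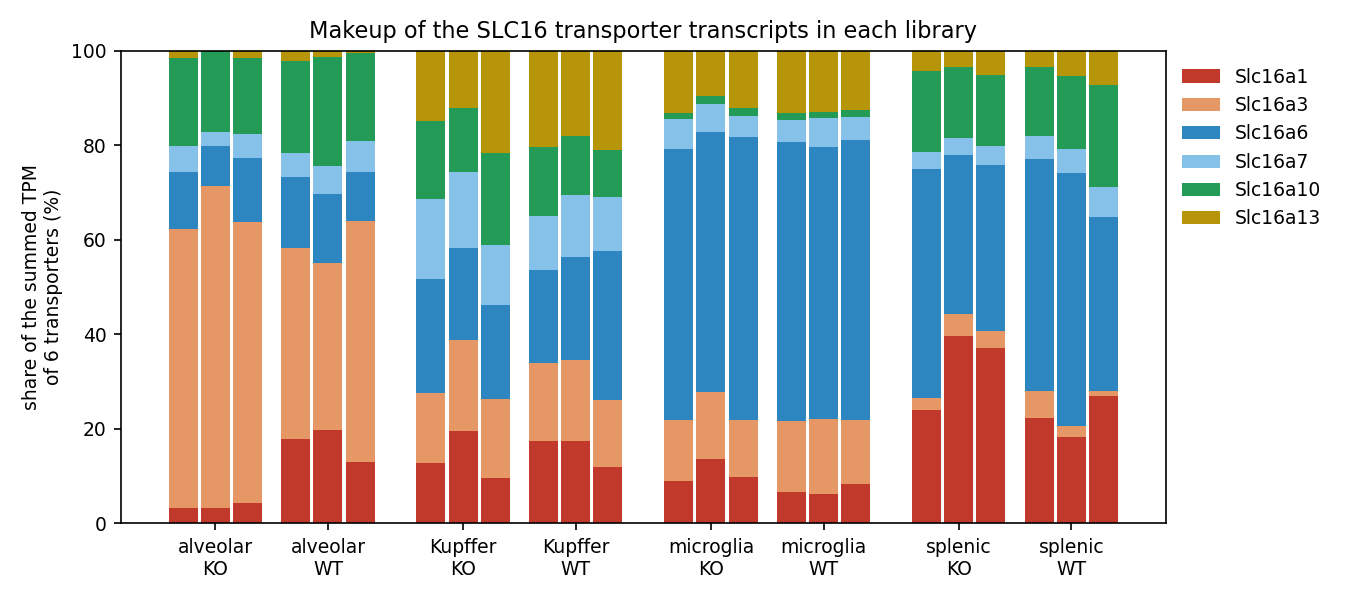
Share of the summed TPM of 6 SLC16 transporters taken by each, in percent, as 1 stacked bar per library, with KO left of WT in each cell type. Slc16a3 is the largest part of the alveolar bars, Slc16a6 that of the microglial bars, and no carrier dominates the Kupffer bars.

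Bsg (chromosome 10 from 79704491 to 79711969, plus strand) encodes basigin, the chaperone that carries Slc16a1 and Slc16a3 proteins to the membrane. It was abundant everywhere and varied least among the members in WT apart from Slc16a7, its highest group mean being 1.52-fold the lowest in KO and 1.97-fold in WT. Alveolar macrophages had 344, 351 and 307 CPM in KO, against 272, 263 and 304 CPM in WT. KO replicate 3 and WT replicate 3 nearly met, but the groups did not overlap (log2 0.29 ± 0.11, adjusted p = 0.333 by edgeR). Microglia had the most, with 447, 498 and 574 CPM in KO and 530.5, 609.9 and 512 CPM in WT, which overlapped. Kupffer cells had 364, 330.5 and 361 CPM in KO and 334, 352 and 370.2 CPM in WT. Splenic macrophages had 337, 369 and 493 CPM in KO and 329.9, 311 and 364 CPM in WT, with KO replicate 3 far above the rest (log2 0.29 ± 0.15, adjusted p = 0.517). In WT, microglia exceeded each other cell type (adjusted p of 3.2e-05 against alveolar, 0.00025 against Kupffer and 0.00079 against splenic macrophages), and in KO they exceeded alveolar and Kupffer but not splenic macrophages (adjusted p = 0.202).

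**Figure D3:**
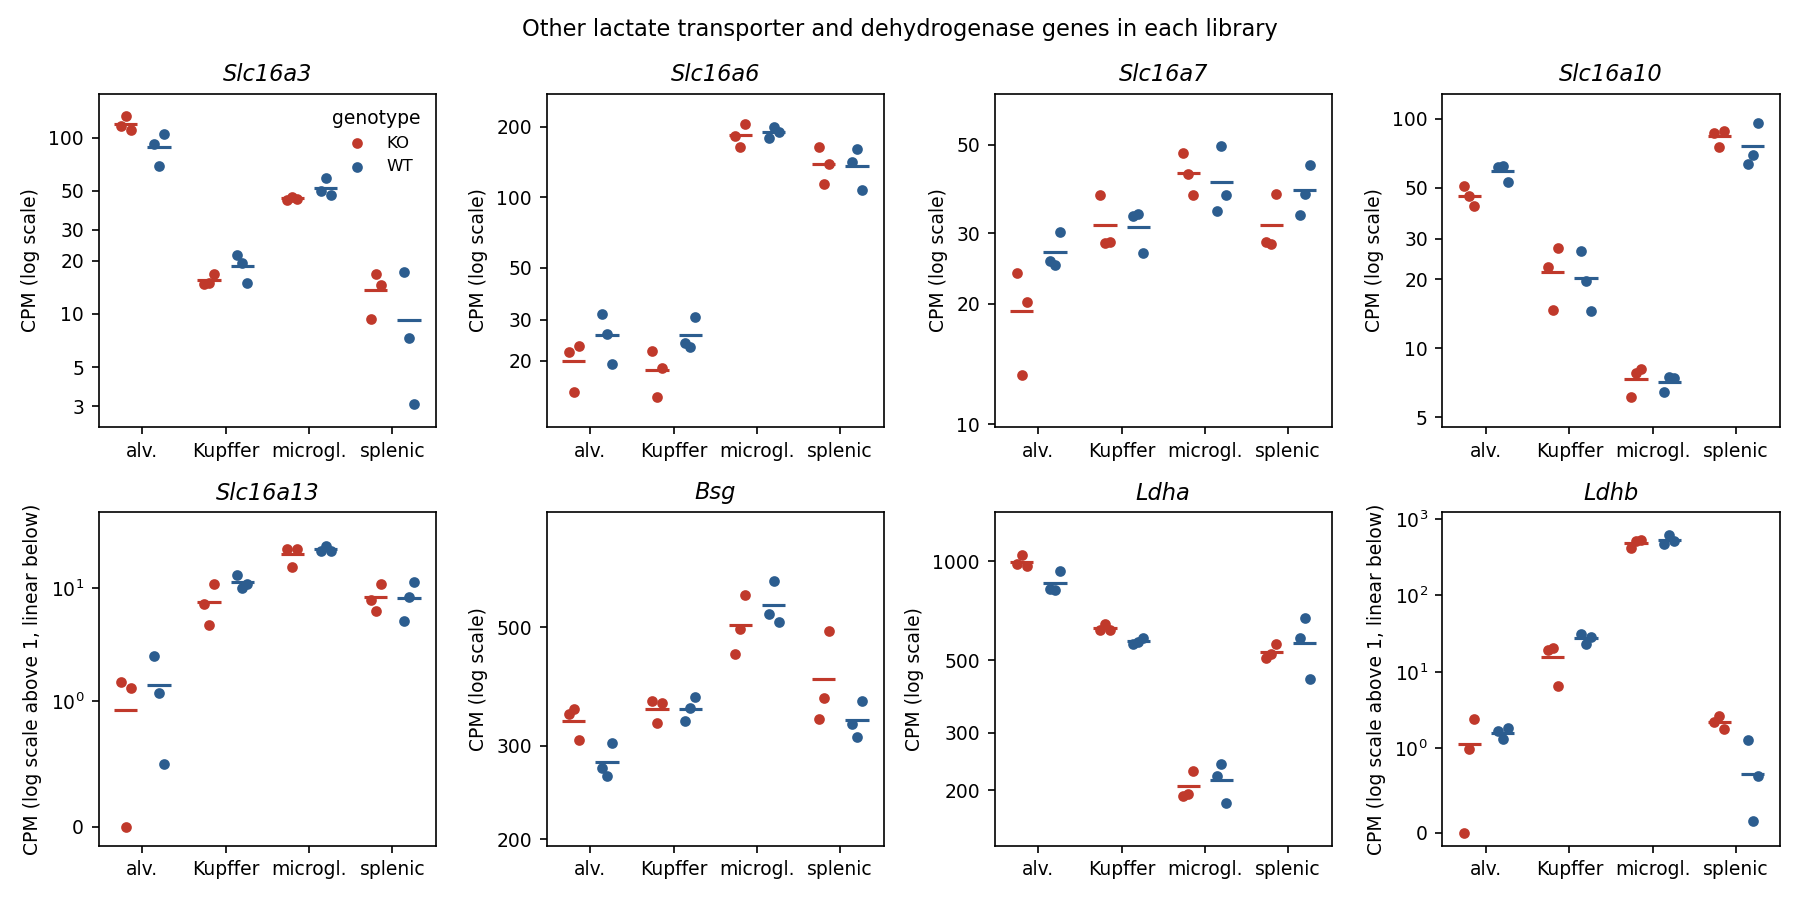
CPM of the other 8 genes in each library, with KO left of WT in each cell type and bars at the group means; the axes are logarithmic, and linear below 1 CPM for Slc16a13 and Ldhb. Slc16a7 and Bsg have the narrowest spans of group means across cell types, at most 2.22-fold and 1.97-fold within a genotype.

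Of the dehydrogenase subunits, Ldha spanned 4.85-fold in KO and 3.99-fold in WT across cell types, and Ldhb had the widest span of all 9 genes. Ldha (chromosome 7 from 46841475 to 46855627, plus strand) was highest in alveolar macrophages, with 981, 1048 and 965 CPM in KO and 822, 817 and 934 CPM in WT. Every KO value was above every WT value (log2 0.25 ± 0.09, adjusted p = 0.319 by edgeR). Kupffer cells had 615, 644 and 617 CPM in KO and 560.5, 568 and 582 CPM in WT, again with KO higher and no overlap (log2 0.15 ± 0.10, adjusted p = 0.849). Splenic macrophages had 507, 521 and 558 CPM in KO and 582, 672 and 438 CPM in WT. Microglia had the least, with 193, 195 and 229 CPM in KO and 221, 241 and 183 CPM in WT. In both of these tissues the genotypes overlapped. Alveolar macrophages exceeded microglia in Ldha by a log2 difference of 2.27 in KO (adjusted p = 4.5e-08) and 1.94 in WT (adjusted p = 3.6e-06), and Kupffer and splenic macrophages were not separated (adjusted p = 0.861 in KO and 0.483 in WT).

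Ldhb (chromosome 6 from 142490249 to 142507957, minus strand) was highest in microglia, where Ldha was lowest, and low in alveolar macrophages, where Ldha was highest. Kupffer cells came next after the highest cell type for both genes in both genotypes. Microglia had 418, 522 and 537 CPM in KO and 467, 621 and 517 CPM in WT. Alveolar macrophages had 0, 0.991 and 2.40 CPM in KO and 1.67, 1.30 and 1.81 CPM in WT. The 0 in KO replicate 1 allows up to 3 counts (0.0492 CPM). The microglial mean was 436-fold the alveolar mean in KO and 766-fold the splenic mean, the lowest, in WT. Microglia exceeded splenic macrophages by a log2 difference of 7.73 in KO (adjusted p = 8.7e-05) and 9.55 in WT (adjusted p = 3.8e-07), and Kupffer cells by 5.13 in KO (Kupffer over microglia −5.13, adjusted p = 0.00071) and 4.45 in WT (Kupffer over microglia −4.45, adjusted p = 1.9e-05). Alveolar and splenic macrophages did not differ beyond their spread in Ldhb (adjusted p = 0.327 in KO and 0.0945 in WT). The WT pair was called in 1 of 15 alternatives, without splenic WT replicate 1 (adjusted p = 0.0126 by edgeR). Summed neural and glial markers (9 genes) were 54.7 to 140 CPM in KO and 57.7 to 118 CPM in WT microglia, and 70.4 to 97.2 CPM in KO and 55.4 to 75.2 CPM in WT alveolar libraries. Their part in the Ldhb levels was not tested. The pseudogene Ldhb-ps, with which Ldhb can share reads, averaged 28.3 CPM in KO and 26.4 CPM in WT microglia and at most 1.53 CPM elsewhere, so the Ldhb counts are uncertain, and the number of shared reads was not tested.

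Kupffer cells held an intermediate level of Ldhb. They had 19.6, 20.8 and 6.57 CPM in KO, against 31.2, 23.02 and 28.4 CPM in WT. All KO values were below all WT values, and KO replicate 3 was far below the others of its group. The log2 fold change was −0.82 ± 0.39 (adjusted p = 0.760 by edgeR) and −0.47 without KO replicate 3. Summed endothelial markers (9 genes) were 3304, 4125 and 1744 CPM in the same KO libraries and 4946, 4017 and 4844 CPM in the WT libraries, so the library lowest for Ldhb was also lowest for them. Among KO Kupffer libraries, replicate 3 was lowest for several other lists too. T cell markers were 301, 311 and 154 CPM, and B cell markers 92.5, 119.7 and 49.6 CPM. Dendritic cell markers were 639, 935 and 273 CPM, and monocyte markers 3474, 1161 and 419 CPM. Fn1 led the monocyte sum, with a mean of 1502 CPM in KO Kupffer libraries. Kupffer markers were highest in replicate 3, at 17250, 14990 and 20080 CPM. The part of any of these lists in the Ldhb difference was not tested. In splenic macrophages Ldhb had 2.17, 2.62 and 1.80 CPM in KO, against 1.27, 0.146 and 0.675 CPM in WT. KO was higher there with no overlap, on 369 counts in KO and 117 counts in WT over 3 libraries each. The splenic log2 fold change of 1.71 ± 0.71 did not pass (adjusted p = 0.415, range over alternatives 0.236 to 0.624).

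Per transcript length, Ldhb made up 83.4% ± 1.44 of the dehydrogenase transcripts (Ldha plus Ldhb, TPM) in KO and 83.9% ± 2.02 in WT microglia (SD, n = 3 each). The share was 4.95% ± 2.39 in KO and 9.23% ± 1.31 in WT Kupffer cells. It was 0.873% ± 0.186 in KO and 0.276% ± 0.211 in WT splenic macrophages, and 0.240% ± 0.263 in KO and 0.390% ± 0.0484 in WT alveolar macrophages. Over the 4 cell types KO minus WT averaged −1.09 percentage points, which an exact two-sided permutation test within cell types did not separate from no difference (p = 0.106 over 160000 arrangements). The result turned on 1 library: without microglia WT replicate 1 the difference was −1.37 points and passed (p = 0.0306, exact permutation). The Kupffer difference of −4.28 points was the largest, and with 3 libraries against 3 no single tissue can go below p = 0.1 in such an exact test. The summed dehydrogenase TPM stayed within a narrower span, from 509 ± 18.5 in KO splenic to 1235 ± 129.7 in KO microglia, and from 548 ± 130.0 in WT splenic to 1262 ± 69.5 in WT microglia.

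**Figure D4:**
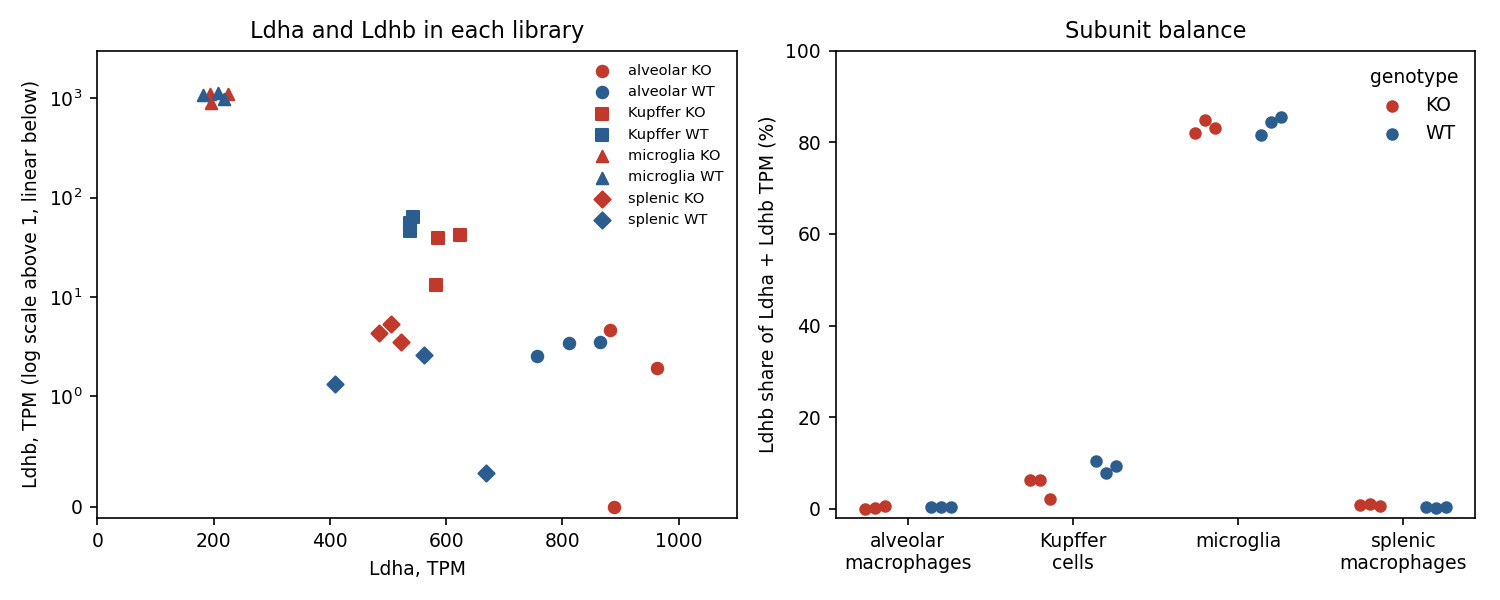
Left, Ldhb against Ldha in TPM for each library, with Ldhb on a log axis that is linear below 1 TPM; right, the share of Ldhb in Ldha plus Ldhb TPM, in percent, with KO left of WT. The microglial libraries stand alone at 81.7% to 85.6%, Kupffer libraries lie at 2.20% to 10.5%, and the alveolar and splenic libraries lie at or below 1.05%.

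All 8 members that could be tested differed across the 4 cell types by the F test of edgeR in WT (highest adjusted p 0.0165, for Slc16a7), where 52.3% of all genes tested did. In KO mice the same 8 passed (highest adjusted p 0.0213, for Slc16a13), against 56.9% of all genes. The 2 weakest of these calls were lost in some alternatives: Slc16a7 in WT passed in 14 of 15 and Slc16a13 in KO in 13 of 15. For single pairs of cell types, the share of all genes called in WT was 28.0% for alveolar over Kupffer, 39.8% for alveolar over microglia, 26.9% for alveolar over splenic, 32.4% for Kupffer over microglia, 16.4% for Kupffer over splenic and 34.9% for microglia over splenic. In KO these shares were 31.3%, 45.8%, 35.4%, 34.4%, 18.9% and 35.2% in the same order of pairs. Differences between cell types were thus common among genes at large.

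Leaving out Slc16a1, 0 of 8 members were called between KO and WT in alveolar macrophages by edgeR, where 0.317% of 17369 genes tested were, 0.184% higher in KO and 0.132% lower. In Kupffer cells 0 of 9 were called (background 0.0629%, all lower in KO). In microglia 0 of 9 were called by edgeR, where 0% of all genes were; 794 genes had an unadjusted p under 0.05 there, and DESeq2 called 93. In splenic macrophages 0 of 9 were called (background 0.747%, with 0.129% higher in KO and 0.618% lower). At an unadjusted p under 0.05 by edgeR there were 3 of 8 members in alveolar macrophages (Slc16a3, Bsg and Ldha), where 12.5% of all genes were. There were 0 of 9 in Kupffer cells (6.94% of all genes), 1 of 9 in microglia (Slc16a1, against 4.44%) and 2 of 9 in splenic macrophages (Slc16a1 and Ldhb, against 11.7%). DESeq2 called 1 of 9 members in splenic macrophages, Slc16a1, where it called 5.07% of all genes, and 0 members in Kupffer cells, microglia and, leaving out Slc16a1, alveolar macrophages, where it called 2.16%, 0.520% and 5.31% of all genes in that order. All 9 members passed the low-count filter in every cell type.

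Groups that did not overlap were more common than calls. In alveolar macrophages this was so for 5 of the 8 other members, 3 of them higher in KO (Slc16a3, Bsg and Ldha) and 2 lower (Slc16a7 and Slc16a10), where 19.4% of all genes did not overlap, 7.61% higher and 11.8% lower. In Kupffer cells it was 3 of 9 (Ldha higher, Slc16a6 and Ldhb lower), against 12.9% of all genes, 5.87% higher and 7.04% lower. In microglia it was 2 of 9 (Slc16a1 higher, Slc16a3 lower), against 11.0%, 5.58% higher and 5.45% lower. In splenic macrophages it was 2 of 9 (Slc16a1 and Ldhb, both higher), against 20.0%, 8.02% higher and 11.9% lower.

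Several summed marker lists other than that of B cells also did not overlap between genotypes. In alveolar libraries, monocyte markers (8 genes) were lower at 424 to 701 CPM in KO and 1136 to 1612 CPM in WT, and dissociation stress genes (7 genes) were lower at 4133 to 5028 CPM in KO and 5107 to 14810 CPM in WT. Neutrophil markers (10 genes) were higher there at 579 to 713 CPM in KO and 243 to 408 CPM in WT, and so were alveolar epithelial markers (8 genes), at 632 to 719 CPM in KO and 295 to 543 CPM in WT. The epithelial genes did not move together. Epcam averaged 233 CPM in KO and 87.4 CPM in WT, and Cdh1 226 CPM in KO and 120 CPM in WT. Sftpc averaged 152 CPM in KO and 146 CPM in WT. Sftpa1 and Sftpb were higher in KO by a few CPM, and Ager, Lamp3 and Hopx were lower in KO. Smaller gaps, also with KO higher, were seen for T cell markers (392.4 to 404.5 CPM in KO and 313 to 378 CPM in WT), endothelial markers (147 to 171 CPM in KO and 107 to 144 CPM in WT) and splenic macrophage markers (339 to 365 CPM in KO and 212 to 259 CPM in WT). Some alveolar sums were led by 1 gene. Cd2 led the T cell sum, at 367 CPM in KO and 323 CPM in WT, whereas Cd3e averaged 5.0 and 4.1 CPM. Hmox1 led the splenic marker sum, at 258 CPM in KO and 163 CPM in WT. Fn1 led the monocyte sum, at 523 CPM in KO and 1252 CPM in WT. The other monocyte genes except Hp were also lower in KO. In Kupffer libraries, dissociation stress genes were 10760 to 10980 CPM in KO and 11520 to 23390 CPM in WT, and proliferation genes (5 genes) 110.2 to 157.5 CPM in KO and 92.8 to 97.1 CPM in WT. In microglia, splenic macrophage markers (5 genes) were 858 to 987 CPM in KO and 537 to 715 CPM in WT, monocyte markers 16.6 to 20.6 CPM in KO and 9.84 to 12.9 CPM in WT, and T cell markers below 1 CPM throughout. Hmox1 led the splenic marker sum of microglia, at 619 CPM in KO and 358 CPM in WT. Spic averaged 0.19 CPM in KO and 0 CPM in WT microglia. In splenic libraries, dissociation stress genes were higher at 23030 to 34120 CPM in KO and 17240 to 22390 CPM in WT. Neutrophil markers were 624 to 829 CPM in KO and 165 to 247 CPM in WT splenic libraries, and proliferation genes 258 to 556 CPM in KO and 95.6 to 211 CPM in WT. General macrophage markers (5 genes) were 11120 to 11510 CPM in KO and 11900 to 14000 CPM in WT splenic libraries, and neural and glial markers 33.3 to 46.3 CPM in KO and 17.4 to 25.7 CPM in WT. The part of these other cells and states in the members' differences was not tested.

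Whether a genotype effect differed between the 4 cell types was tested in all 24 libraries, where 0.524% of 24030 genes passed. None of the 8 members other than Slc16a1 passed by edgeR: the lowest adjusted p was 0.475 for Ldhb, followed by 0.509 for Bsg, and the highest was 0.994 for Slc16a13. None of these 8 passed in any of the 27 alternatives. The intervals show what the libraries allow: in microglia the 95% interval of the log2 fold change of Ldhb ran from −0.45 to 0.23 and that of Ldha from −0.40 to 0.28, whereas in alveolar macrophages that of Ldhb ran from −3.61 to 2.63.

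**Figure D5:**
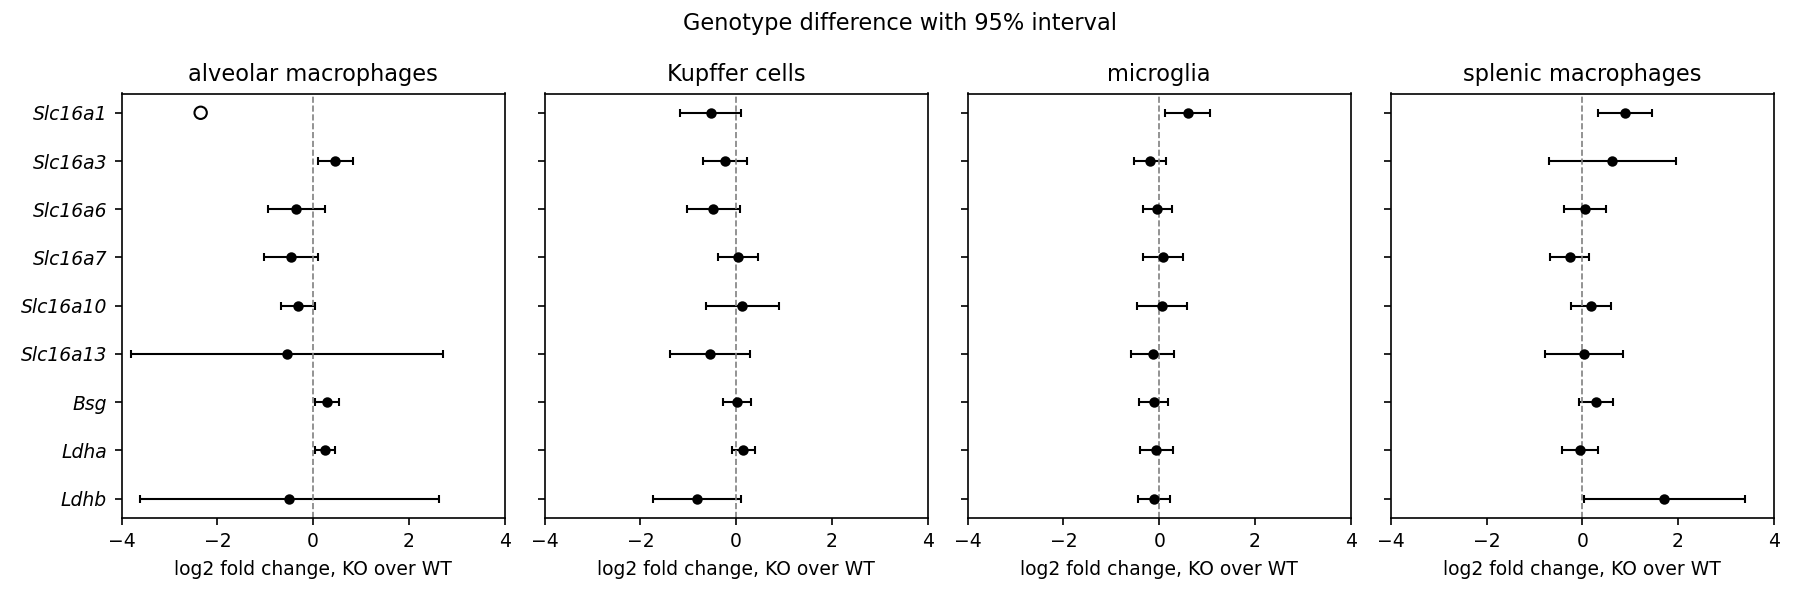
Log2 fold change of KO over WT for the 9 genes in each cell type, with 95% intervals that are not adjusted for the number of genes; the open circle is Slc16a1 in alveolar macrophages, which is shown without an interval because it was chosen on that difference. The widest intervals are those of Slc16a13 and Ldhb in alveolar macrophages, where both genes are near 1 CPM.

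Other genes of the pathway were taken from 3 lists. Of 12 other SLC16 family members and monocarboxylate carriers, 0 rose and 0 fell by edgeR in any cell type, with 6 or 7 of them tested. At an unadjusted p under 0.05 by edgeR there were 0 in alveolar, 2 in Kupffer, 1 in microglia and 0 in splenic libraries. Of all genes, 12.5%, 6.94%, 4.44% and 11.7% were under it in the same order, and 0.317%, 0.0629%, 0% and 0.747% were called. DESeq2 called 0 of the list in each, where it called 5.31%, 2.16%, 0.520% and 5.07% of all genes. The most abundant genes of the list were Slc16a9, with 88.7 ± 17.6 CPM in KO and 58.8 ± 10.8 CPM in WT Kupffer cells and 127.9 ± 14.97 CPM in KO and 129.9 ± 22.5 CPM in WT splenic macrophages, and Emb, a chaperone related to basigin, with 73.4 ± 6.90 CPM in KO and 74.8 ± 11.0 CPM in WT alveolar macrophages. The list's median log2 fold change was −0.30 in alveolar, 0.00 in Kupffer, 0.09 in microglia and 0.44 in splenic macrophages, where the median over all genes was within 0.015 of 0.

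Of 17 genes of pyruvate use, Pdk4 rose in alveolar macrophages by edgeR and no gene fell, where 0.317% of all genes were called. At an unadjusted p under 0.05 by edgeR there were 2 of the 17 in alveolar libraries, against 12.5% of all genes. Pdk4 encodes a kinase that inhibits the pyruvate dehydrogenase complex. It averaged 98.8 ± 20.8 CPM in KO and 19.3 ± 6.51 CPM in WT alveolar macrophages (log2 2.39 ± 0.27, adjusted p = 0.0258 by edgeR). The call was lost in the fit of all 24 libraries (adjusted p = 0.211), with the replicate number as a block (adjusted p = 0.123) and whenever 1 alveolar library was left out (adjusted p 0.0510 to 0.183). The log2 fold change was 2.19 to 2.64 over these alternatives. In Kupffer cells Pdk4 had 25.6 ± 8.46 CPM in KO and 38.2 ± 12.5 CPM in WT. No gene of the list was called by edgeR in the other 3 cell types. There 0, 0 and 1 (Kupffer, microglia and splenic) had an unadjusted p under 0.05, against 6.94%, 4.44% and 11.7% of all genes. DESeq2 called Pdk4 and Ldhd higher in KO alveolar macrophages and Gpt2 higher in KO splenic macrophages, and 0 in the other cell types. Of all genes it called 5.31% in alveolar macrophages, 5.07% in splenic macrophages, 2.16% in Kupffer cells and 0.520% in microglia. Gpt2, a mitochondrial alanine aminotransferase, averaged 62.4 ± 9.54 CPM in KO and 30.8 ± 9.32 CPM in WT splenic macrophages. Ldhd, a dehydrogenase of D-lactate, averaged 6.35 ± 3.37 CPM in KO and 1.68 ± 0.919 CPM in WT alveolar macrophages. The list's median log2 fold change was −0.01 in alveolar and 0.00 in Kupffer cells, 0.08 in microglia and −0.01 in splenic macrophages.

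Of 18 genes of the hypoxia response, 0 were called in any cell type by edgeR, and 3 in alveolar, 1 in Kupffer, 1 in microglia and 3 in splenic libraries had an unadjusted p under 0.05, where 12.5%, 6.94%, 4.44% and 11.7% of all genes did in the same order. DESeq2 called Egln2 and Epas1 higher in KO alveolar macrophages, where it called 5.31% of all genes. It called 0 genes of the list in Kupffer cells, microglia and splenic macrophages, against 2.16%, 0.520% and 5.07% of all genes. Egln2, a prolyl hydroxylase that acts on hypoxia factors, averaged 88.4 ± 1.94 CPM in KO and 62.4 ± 12.02 CPM in WT alveolar macrophages. Epas1, which encodes another oxygen-regulated subunit of the hypoxia factor, averaged 38.01 ± 1.54 CPM in KO and 15.7 ± 6.64 CPM in WT alveolar macrophages. These genes were named for their DESeq2 calls, after their values were seen. Hif1a, the oxygen-regulated subunit of the hypoxia factor, had 93.3 ± 13.7 CPM in KO and 89.6 ± 13.5 CPM in WT alveolar macrophages. P4ha1, a collagen prolyl hydroxylase subunit, had 72.9 ± 5.53 CPM in KO and 80.6 ± 18.0 CPM in WT alveolar macrophages, and its highest means were 415 ± 102 CPM in KO and 384 ± 119.6 CPM in WT microglia. The list's median log2 fold change was 0.02 in alveolar, 0.09 in Kupffer, −0.02 in microglia and −0.18 in splenic macrophages.

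The genes closest to each member in pattern were sought by Pearson's r of log2 CPM over the 24 libraries, among 10686 genes with a mean of at least 5 CPM. The libraries share their cell type and genotype, so these values describe the table and carry no test. For Slc16a1 they were Gpd1 (r = 0.914), Cpeb4 (0.907), Sgip1 (0.889), Klf6 (0.886) and Spty2d1 (0.883). For Slc16a3 they were A930007I19Rik (0.952), Ramp1 (0.946) and Siglecf (0.940), the last being an alveolar macrophage marker. For Slc16a6 they were Jund (0.969), Zfand5 (0.952) and Eef2k (0.945), and for Slc16a10 Adam22 (0.977), Ermp1 (0.967) and Angptl4 (0.966). For Ldha they were Gsr (0.982), Cd2 (0.979) and Nagk (0.979), and for Ldhb Fkbp7 (0.951), Ctsl (0.946) and Fam72a (0.945). Slc16a13 was closest to Adap2os (0.927), Fgd2 (0.915) and Fads1 (0.912), and Bsg to Ggt5 (0.923), Ormdl3 (0.910) and Vsir (0.899). Slc16a7 had the loosest matches, Tspyl1 (0.866), Timp2 (0.855) and Tha1 (0.853).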

How the data were processed

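RNA of 100000 sorted macrophages per sample was sequenced, per the labels' protocols, after NucleoSpin RNA XS isolation and SMARTer Ultra Low library preparation on a NovaSeq X Plus. Alignment build mm10 and the names DRAGEN, STAR, Subread, featureCounts and Salmon stand, without roles, in the submitters' processing notes. The authors deposited whole-number gene counts that were not normalized. The deposited CPM values were counts scaled to the library total, and a recomputation matched them to within 4.7e-11. Deposited TPM values are scaled for transcript length as well. Repeated rows put every deposited TPM column above 1000000, by 0.135% to 3.25%, and each added up to 1000000 once repeats were dropped. The 4 deposited columns furthest above, all splenic, are TPM values recorded as a score. TPM gave shares and sums of each library. Of 55774 rows, 287 repeats were dropped. Group and replicate came from each sample's own labels, and 0 value columns were left unused.

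KO was compared with WT in the 6 libraries of each cell type, the cell types in the 12 libraries of each genotype, and the interaction in all 24, on counts with edgeR 4.0.16 (two-sided quasi-likelihood test, R 4.3.3), after TMM scaling and filterByExpr (minimum count 10). A call needed an adjusted p (Benjamini-Hochberg, over all genes tested) under 0.05. Alternatives were DESeq2 1.42.0 size factors and its Wald test, no filter, the replicate number as a block, the fit of all 24 libraries, and leaving out each library. The tests were checked on simulated data, where most changes of 1 log2 unit between KO and WT were not called in any cell type. A gene without a call may therefore still differ. No replicate pair agreed within sampling noise (smallest chi-square per degree of freedom 32.7). The labels name no batch.

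The members and lists were chosen with earlier results of these data known. Every member was described; from each list the text names called members, or else up to 4 of the highest mean CPM (1 of these is not reported here), and for likeness the 5 closest genes to Slc16a1 and 3 for each other member (log2 CPM, prior count 2). Coordinates are 1-based, from the GENCODE annotation of mm10, and promoters from RefSeq GRCm38.p6. Reads carry no molecular identifiers, so floors cover counting error only.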

Additional observations from a re-analysis of the deposited data

Results flagged for a closer look

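The KO to WT difference of some members had opposite directions in different cell types, with no overlap between the groups on either side. Each value is a difference of log2 ratios of mean CPM, and none of these pairs of tissues was tested on its own. For Slc16a1 the KO to WT difference was 2.96 higher in microglia than in alveolar macrophages, and 3.23 higher in splenic than in alveolar macrophages. The alveolar side of both was fixed by the choice of the gene, and the test among Kupffer cells, microglia and splenic macrophages did not pass (adjusted p = 0.322 by edgeR). For Slc16a3 the difference was 0.63 higher in alveolar macrophages, where KO was higher, than in microglia, where KO was lower. Its interaction over the 4 cell types did not pass (adjusted p = 0.649 by edgeR). For Ldhb the difference was 2.47 higher in splenic macrophages, where KO was higher at 1.80 to 2.62 CPM in KO and 0.146 to 1.27 CPM in WT, than in Kupffer cells, where KO was lower. Its interaction did not pass either (adjusted p = 0.475 by edgeR).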

How the results depend on the processing

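No tested member was called between KO and WT by edgeR, and the one alternative that changed this was DESeq2, which called 1 member in splenic macrophages. Counts of genes called depended strongly on the fit. In alveolar macrophages 55 genes were called, against 163 without the filter, 922 by DESeq2, 297 in the fit of all 24 libraries and 0 to 29 without 1 library. In Kupffer cells 12 were called, against 76, 413, 48 and 0 to 15 in the same order. In microglia 0 were called (794 at an unadjusted p under 0.05), against 13, 93, 19 and 0 to 1. In splenic macrophages 133 were called, against 330 and 903 in the first pair of settings and 18 to 90 without 1 library. The interaction over 4 cell types called 126, or 74 to 159 without 1 library, and that over 3 cell types 31, or 7 to 32, and 19 with DESeq2 size factors.

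Replicate numbers did not meet the bar for pairing: 12 same-numbered pairs of KO and WT libraries correlated at −0.0403 to 0.0363, with 4 best with their own number. Between cell types 36 pairs correlated at −0.0203 to 0.0729, with 16 best with their own number, including all 6 pairs of microglia and splenic libraries. With the replicate number as a block, 0 genes were called in alveolar macrophages, 0 in Kupffer cells and 10 in splenic macrophages, and 10 by the interaction over 3 cell types. The block also turned Slc16a3 of Kupffer over splenic macrophages in KO to 0.0097, against −0.02 without it.

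Leaving out 1 library turned the sign of several small log2 fold changes, none of them called. In alveolar macrophages the range was −1.64 to 0.092 for Ldhb and −1.09 to 0.14 for Slc16a13. In Kupffer cells it was −0.12 to 0.37 for Slc16a10, −0.11 to 0.15 for Slc16a7 and −0.035 to 0.10 for Bsg. In microglia it was −0.031 to 0.18 for Slc16a10, −0.0099 to 0.23 for Slc16a7, −0.18 to 0.0040 for Ldhb, −0.13 to 0.043 for Slc16a6, −0.22 to 0.022 for Slc16a13 and −0.16 to 0.011 for Ldha. In splenic macrophages it was −0.080 to 0.21 for Slc16a6, −0.22 to 0.35 for Slc16a13 and −0.19 to 0.11 for Ldha. Between cell types of WT it was −0.076 to 0.30 for Slc16a6 (alveolar over Kupffer), −0.032 to 0.55 for Slc16a13 (Kupffer over splenic) and −0.12 to 0.15 for Slc16a7 (microglia over splenic). In KO it was −0.029 to 0.13 for Bsg (alveolar over Kupffer), −0.23 to 0.21 for Slc16a3 and −0.011 to 0.056 for Ldha (both Kupffer over splenic). The mean Ldhb share difference ran from −1.37 to −0.749 percentage points, and passed only without microglia WT replicate 1 (exact permutation p = 0.0306). The cause of these changes was not tested. At these depths a count of 0, as in 1 KO alveolar library each for Slc16a13 and Ldhb, allows up to 0.0495 and 0.0492 CPM.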

Other observations

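Reads of Ldha can also be shared with its pseudogenes. Ldha-ps2 averaged 5.34 ± 1.41 CPM in KO and 5.52 ± 0.610 CPM in WT alveolar macrophages, 4.20 ± 1.08 CPM in KO and 3.77 ± 0.582 CPM in WT Kupffer cells, and 1.19 ± 0.397 CPM in KO and 1.25 ± 0.354 CPM in WT microglia. Its order over these tissues was that of Ldha itself. Ldhb-ps averaged 1.34 ± 0.700 CPM in KO and 1.53 ± 0.464 CPM in WT Kupffer cells.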
